A study of Mus musculus with 10 samples.

Results

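The genes Bmp2, Bmp4, Tgfb1, Bmpr1a, Tgfbr2, Smad6, Smad7, Id1, Id2 and Id3 of bone morphogenetic protein (BMP) and transforming growth factor beta (TGF-beta) signalling were followed in intestinal epithelial cells (IECs). They were found by gene symbol in the deposited table, which held all 10 of them among 55487 genes. RNA came from colon IECs of 5 wild type (WT) and 5 RhoB-/- samples, all on the C57BL/6J strain and with no treatment named in the labels, and was measured by RNA sequencing. RhoB is a small GTPase of endosomes and the plasma membrane, and the study profiled both genotypes to look for mechanisms that link it to goblet cell number and epithelial renewal. The knockout mice were made at a model animal centre and were deficient in every tissue, while WT males were bought from another supplier, so genotype and source of the mice cannot be told apart. Epithelium was shaken off the colon after EDTA and DTT, with no cell sorting described for these libraries. The labels gave no age.

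BMP and TGF-beta ligands bind paired type I and type II serine/threonine kinase receptors, which phosphorylate receptor Smads that enter the nucleus with Smad4. BMP receptors act mainly through Smad1, Smad5 and Smad9, and TGF-beta and activin receptors through Smad2 and Smad3. In the gut, BMP activity is highest towards the top of the crypt and the surface, where it restrains stem cells and favours differentiation, while antagonists made by stroma at the crypt base keep it low. TGF-beta restrains epithelial growth and inflammation. The inhibitory Smads, Smad6 and Smad7, and the Id proteins are transcribed in response to these signals, so their transcripts are often used as a readout of pathway activity.

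Values are TPM, a share of each library's RNA that takes gene length into account. TPM keeps no sequencing depth, so the reads behind each value are unknown and no counting error is given. Fold changes are RhoB-/- minus WT of mean log2(TPM + 1), so changes of low genes come out too small. They were tested with limma over the 12870 genes that averaged 1 TPM or more, and a gene was called at a Benjamini-Hochberg adjusted p below 0.05. The median log2 fold change of all tested genes was -0.13, so a gene at 0 stood slightly above the typical gene.

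The libraries were checked before the signalling genes were read. Rhob itself lay between 171 and 389 TPM in WT and at 0.09, 0.1, 0.35, 0.57 and 110.87 TPM in RhoB-/- replicates 1 to 5. The library labelled RhoB-/- replicate 5 thus held Rhob RNA at a level that goes against its label. Results of the signalling genes are given with and without it where it changed a call. All 10 epithelial markers tested were expressed in both groups, with summed levels of 26270 to 30344 TPM in WT and 26163 to 43037 TPM in RhoB-/-. Of these markers 3 were called higher (Vil1, Krt20 and Cdx2) and 9 had a positive change, while 7.73% of all tested genes were called higher. Leukocyte markers summed to 4.06 to 8.9 TPM in WT and 13.96 to 27.48 TPM in RhoB-/-, and all 3 of the 8 that could be tested were higher. Fibroblast markers summed to 8.57 to 11.69 TPM and 12.84 to 58.41 TPM, with 2 of 4 tested markers higher. Smooth muscle markers summed to 1.14 to 2.28 TPM and 1.64 to 2 TPM, and the 1 that could be tested was not called. All 6 endothelial markers lay below the filter, with sums of 1.45 to 2.19 TPM and 1.58 to 2.95 TPM, and by the exact permutation test 2 of them differed: Plvap at 0.03 to 0.07 TPM in WT against 0.12 to 0.21 TPM in RhoB-/- (p = 0.00794) and Kdr at up to 0.01 TPM against up to 0.13 TPM (p = 0.0238). The mitochondrial share of TPM ran from 17.5% to 26.5% in WT and from 10.3% to 22.4% in RhoB-/-.

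Of the 10 genes, 9 passed the filter on low values, 2 fell in RhoB-/- IECs and none rose. The genes that fell were Smad6 and Id2. Across all tested genes 21.2% were called in either direction and 13.5% were called lower, so 2 of 9 is a share near the background and is not a result about the pathway as a whole. At an unadjusted p below 0.05, 4 of the 9 were lower (Smad6, Id2, Tgfb1 and Tgfbr2) and 0 higher, against 24.9% of all tested genes lower. With the study's own cut-offs, a change of over 1.5-fold beside an unadjusted p under 0.05, 0 of the 9 were called by limma, against 14.7% of all tested genes. The median change of the 9 genes was -0.31, against -0.13 over all tested genes, with 7 changes negative and 5 of them below the median of all genes. Ligand, receptor, inhibitory Smad and Id genes did not move as a block, as the plot of TPM by library shows. Of all calls, 63.5% were lower. With each library centred on its median 44.5% were, and with mitochondrial genes removed 77.2% were.

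**Figure D1:**
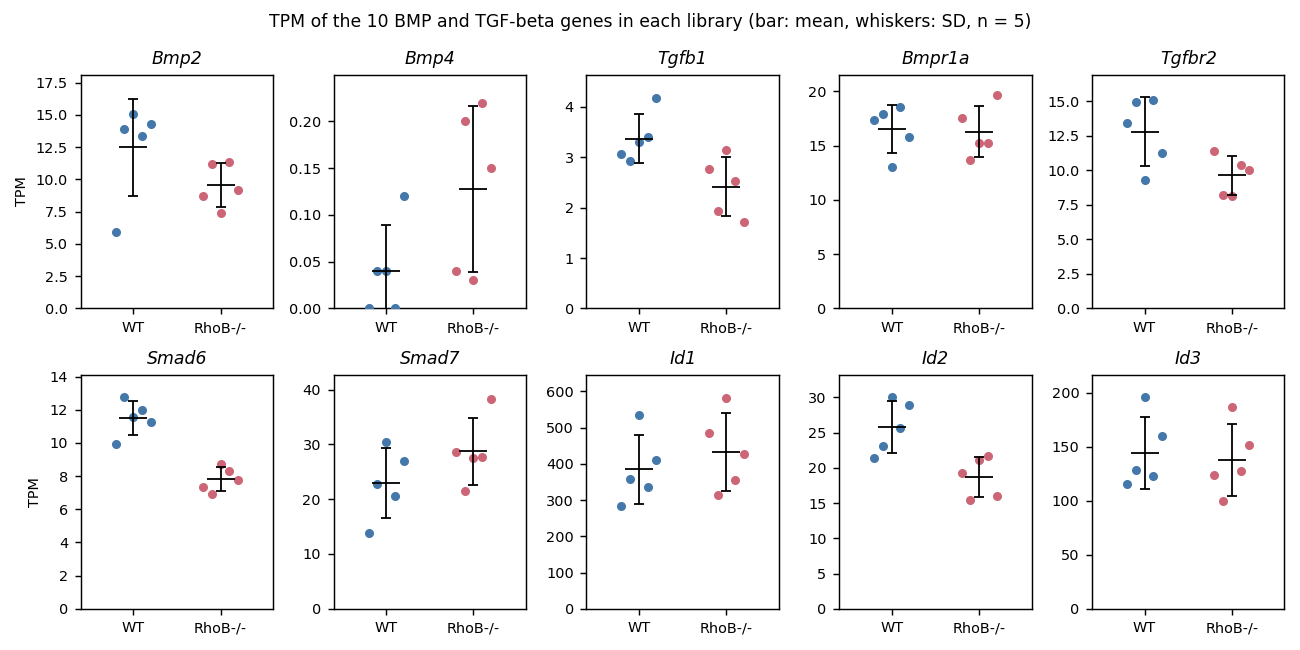
TPM (linear axis from 0) of the 10 BMP and TGF-beta genes, with 1 point per library, WT in blue and RhoB-/- in red; the bar is the mean and the whiskers the SD of 5 libraries, and the lower whisker of Bmp4 in WT runs below the axis. Smad6 is the one gene whose groups do not overlap, with WT at 9.95 to 12.77 TPM and RhoB-/- at 6.94 to 8.73 TPM.

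The sequences before the RefSeq start sites of the genes that fell are shown first, since Smad6 and Id2 are themselves transcribed in response to Smads. Both come from RefSeq on GRCm38.p6, where 7 of the 10 genes had an entry, and both read 5′ to 3′ towards the start site on the minus strand. Smad6 (chr9:63953076-64022059, minus strand) is shown with all 250 bases before its start site, at chr9:64022060-64022309. Id2 (chr12:25093799-25097140, minus strand) is shown at chr12:25096254-25096342, from 250 to 162 bases before the start site, because the remaining 161 bases lie in an exon of another annotated Id2 transcript. The stretch shown lies outside annotated exons but inside the annotated span of Id2, so it is not upstream of every Id2 transcript. Capitals mark a match to GGCGCC, a GC-rich Smad motif.
Smad6: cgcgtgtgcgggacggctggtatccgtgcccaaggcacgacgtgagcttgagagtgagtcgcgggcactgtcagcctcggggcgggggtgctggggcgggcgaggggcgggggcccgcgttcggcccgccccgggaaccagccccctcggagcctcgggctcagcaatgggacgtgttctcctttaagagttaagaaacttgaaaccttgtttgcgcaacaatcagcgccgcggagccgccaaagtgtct
Id2: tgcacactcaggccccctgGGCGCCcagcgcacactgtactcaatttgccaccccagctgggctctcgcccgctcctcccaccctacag

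A set of 3 motifs was searched on both strands: the Smad box GTCTG, the GC-rich Smad motif GGCGCC, which reads the same on both strands, and the CRE half-site TGACG. Matches were counted motif by motif, and motifs can share end bases, such as the TG that ends GTCTG and starts TGACG. The Smad6 window held none of the 3, and the whole 250-base Id2 window held 1 GGCGCC and neither of the others. Among the genes without a call, the Bmpr1a window also held 1 GGCGCC and the Tgfbr2 window held 1 GTCTG. The Id3 window, which lies in an annotated exon, held 2 GTCTG and 1 TGACG. The Tgfb1 and Bmp4 windows held none of the 3. Among 32851 windows of the same length, 42.2% held GTCTG, 9.59% held GGCGCC and 17.8% held TGACG. A match describes letters in a window and is not a bound site.

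The ligand genes showed no call. Bmp2, a BMP ligand that colonocytes near the surface make themselves, was at 5.89, 13.88, 15.11, 13.37 and 14.33 TPM in WT and at 8.69, 11.22, 7.43, 11.36 and 9.16 TPM in RhoB-/-. WT replicate 1 lay below every RhoB-/- library, while the other 4 WT libraries lay above all of them. The log2 fold change was -0.31 (SE 0.22, 95% interval -0.79 to 0.17, limma adjusted p = 0.333), and an exact permutation test gave p = 0.254. Without WT replicate 1 it was -0.53 (limma adjusted p = 0.017), so that 1 library decided the call. WT replicate 1 also had the highest mitochondrial share, 26.5% against 17.5% to 20.3% in the other WT libraries. The part of that share in its Bmp2 value was not tested.

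Tgfb1, the TGF-beta ligand with broad immune and epithelial roles, was at 3.06, 2.92, 3.29, 3.39 and 4.17 TPM in WT and at 2.77, 1.93, 3.14, 2.52 and 1.71 TPM in RhoB-/-. Only RhoB-/- replicate 3 reached into the WT range. The log2 fold change was -0.37 (SE 0.15, 95% interval -0.69 to -0.04), with an unadjusted p of 0.0313 and an adjusted p of 0.0996 from limma. Tgfb1 therefore missed the threshold, and passed it without RhoB-/- replicate 3 (limma adjusted p = 0.0384) and with mitochondrial genes removed (limma adjusted p = 0.0351). Leukocytes also make Tgfb1, and the leukocyte markers were higher in the same libraries, a difference of opposite sign whose part in this value was not tested.

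Bmp4, the BMP ligand known chiefly from the mesenchyme of the gut, was close to absent in these epithelial preparations. It was listed at 0, 0.04, 0.04, 0 and 0.12 TPM in WT and at 0.04, 0.2, 0.03, 0.22 and 0.15 TPM in RhoB-/-. The groups overlapped, and the gene was below the filter of the fit (exact permutation p = 0.0952). RhoB-/- replicates 4 and 5, with the highest fibroblast marker Dcn (11.14 and 24.51 TPM against 1.8 to 2.3 TPM in WT), were at 0.22 and 0.15 TPM of Bmp4. RhoB-/- replicate 2, at 4.49 TPM of Dcn, had 0.2 TPM of Bmp4.

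The receptor genes were not called. Bmpr1a, the type I receptor through which BMP reaches the epithelium, was at 17.37, 17.94, 13.06, 18.55 and 15.8 TPM in WT and at 17.57, 13.64, 15.27, 15.26 and 19.61 TPM in RhoB-/-. The groups overlapped almost fully. Its log2 fold change of -0.02 (SE 0.12, 95% interval -0.29 to 0.25, limma adjusted p = 0.91) turned positive under quantile normalization and with library medians centred, so no direction is given.

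Tgfbr2, the type II receptor without which a cell cannot answer TGF-beta, was at 13.43, 14.95, 9.28, 15.11 and 11.23 TPM in WT and at 11.4, 8.2, 8.15, 10.35 and 10.01 TPM in RhoB-/-. WT replicates 1, 2 and 4 lay above every RhoB-/- library, and WT replicates 3 and 5 lay within the RhoB-/- range. The log2 fold change was -0.37 (SE 0.15, 95% interval -0.68 to -0.05), with an unadjusted p of 0.0263 and an adjusted p of 0.0891 from limma. Tgfbr2 passed the threshold without WT replicate 3 (limma adjusted p = 0.0324) and with mitochondrial genes removed (limma adjusted p = 0.04).

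**Figure D2:**
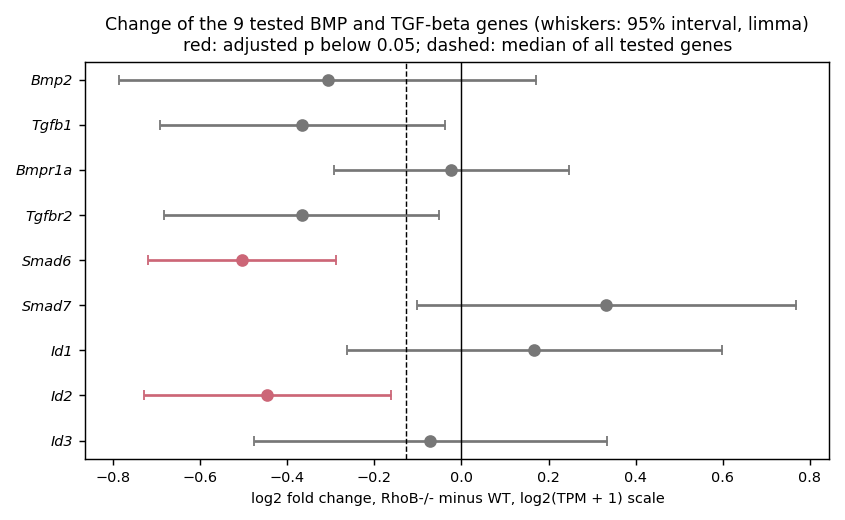
Log2 fold change (RhoB-/- minus WT, log2(TPM + 1) scale) of the 9 tested genes with the 95% interval from limma; red marks an adjusted p below 0.05, the solid line is 0 and the dashed line the median of all tested genes. The intervals of Smad6 (-0.72 to -0.29) and Id2 (-0.73 to -0.16) lie wholly below the dashed line at -0.13, and those of Smad7, Id1, Id3, Bmpr1a and Bmp2 span 0.

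The inhibitory Smads differed from each other. Smad6, which mainly restrains BMP type I receptors, was at 9.95, 12.77, 11.57, 11.99 and 11.27 TPM in WT and at 7.32, 6.94, 8.73, 8.33 and 7.78 TPM in RhoB-/-. Every WT library lay above every RhoB-/- library, which held for 14.5% of all tested genes in either direction, for 8.55% in this one and for 5.97% in the other. The mean fell from 11.5 ± 1.04 to 7.82 ± 0.727 TPM (SD, n = 5), a ratio of 0.679. The log2 fold change was -0.50 (SE 0.10, 95% interval -0.72 to -0.29, limma adjusted p = 0.00501), or -0.38 relative to the median gene. An exact permutation test gave p = 0.00794, the smallest that 5 against 5 libraries allows. Smad6 kept its call in each of the 10 fits with a library left out (limma adjusted p 0.00394 to 0.0181), including the fit without RhoB-/- replicate 5 (limma adjusted p = 0.0136), and in the 8 other fits tried, but its change was too small to be called with the study's 1.5-fold cut-off.

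Smad7, which restrains both BMP and TGF-beta receptors, was at 13.85, 22.77, 30.48, 20.66 and 27.04 TPM in WT and at 28.68, 21.44, 27.47, 27.66 and 38.31 TPM in RhoB-/-. The lowest library was WT replicate 1 and the highest RhoB-/- replicate 5, with the other 8 between 20.66 and 30.48 TPM. Its log2 fold change was 0.33 (SE 0.20, 95% interval -0.10 to 0.77, limma adjusted p = 0.247). Smad7 was not called, and the upper end of its interval was above that of every other tested gene of the 10.

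The Id genes encode helix-loop-helix proteins without a DNA-binding region, which hold back differentiation factors, and all 3 are classical BMP targets. Together they made up 85.3% to 91.8% of the summed TPM of the 10 genes in a library. Id2 was at 21.32, 23.15, 30, 25.65 and 28.89 TPM in WT and at 19.31, 15.39, 21.08, 21.65 and 16.05 TPM in RhoB-/-. WT replicate 1 lay just under RhoB-/- replicate 4, and the groups were otherwise apart. The mean fell from 25.8 ± 3.68 to 18.7 ± 2.86 TPM (SD, n = 5), a ratio of 0.725.

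The log2 fold change of Id2 was -0.45 (SE 0.13, 95% interval -0.73 to -0.16, limma adjusted p = 0.0318), or -0.32 relative to the median gene, and an exact permutation test gave p = 0.0159. The call of Id2 was less secure than its direction. It was lost in 6 of the 10 fits with a library left out, those without WT replicate 3, 4 or 5 or RhoB-/- replicate 1, 2 or 5, with limma adjusted p values up to 0.076. It was also lost without the filter on low values (limma adjusted p = 0.0611) and with library medians centred (limma adjusted p = 0.0789). The value without RhoB-/- replicate 5 was -0.40 (limma adjusted p = 0.076).

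Id1 was the most abundant of the 10 genes, at 284, 359, 534, 336 and 411 TPM in WT and at 484, 313, 583, 356 and 428 TPM in RhoB-/-. The groups overlapped over most of their range, and replicate 3 was the highest library in each genotype. The log2 fold change was 0.17 (SE 0.20, 95% interval -0.26 to 0.60, limma adjusted p = 0.565). Id3 was at 116, 128, 196, 123 and 160 TPM in WT and at 124, 99.6, 187, 128 and 151 TPM in RhoB-/-. Its log2 fold change of -0.07 (SE 0.19, 95% interval -0.48 to 0.33, limma adjusted p = 0.807) turned positive with library medians centred. The Id genes thus gave different results in the same libraries, with a call for Id2 and none for Id1 or Id3. The differences between them were not tested.

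Id1 and Id3 rose and fell together from library to library. Over the 10 libraries Pearson's r of their log2(TPM + 1) was 0.837 (permutation p = 0.00286, adjusted over 36 pairs of genes 0.0343) and Spearman's rank correlation was 0.842 (permutation p = 0.00382, adjusted 0.0688). Without the 2 libraries farthest from the median of Id1 r was 0.619, and with each genotype's mean removed it was 0.907. Tgfb1 and Id2 gave r = 0.894 (permutation p = 0.00076, adjusted 0.0274) and a Spearman correlation of 0.806 (permutation p = 0.00671, adjusted 0.0805), with r = 0.737 without the 2 farthest libraries and 0.78 with each genotype's mean removed. Both genes had a negative change in RhoB-/-, so the pooled values of this pair include a difference between genotypes. The r of 0.78 was not tested. Of the 36 pairs, 3 had an adjusted p of Pearson's r below 0.05, and in all 3 the rank correlation missed the adjusted threshold. The third pair was Smad6 and Id2, the genes that fell. Its pooled r is not given because the genotypes form separate clusters in Smad6, and with each genotype's mean removed r was 0.518. TPM values of a library share its composition, and the part of that in these relations was not tested.

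The order of the levels was nearly the same in both genotypes. In WT it ran from Id1 at 385 ± 95.1 TPM (SD, n = 5) and Id3 at 145 ± 33.4 TPM down to Tgfb1 at 3.37 ± 0.486 TPM and Bmp4. Id1 did not overlap Id3 in range, Id3 did not overlap Id2, Smad6 did not overlap Tgfb1, and Tgfb1 did not overlap Bmp4. Id2, Smad7, Bmpr1a, Tgfbr2, Bmp2 and Smad6 formed a middle group in which each gene's range overlapped that of the next. In RhoB-/- the sole change of order was between neighbours of that group, with Smad7 at 28.7 ± 6.08 TPM above Id2 at 18.7 ± 2.86 TPM.

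By the library-to-library pattern with each genotype's mean removed, the tested genes most like Smad6 were Cmas, an enzyme of sialic acid activation (r = 0.979), Dalrd3 (r = 0.974) and Mff, a receptor for mitochondrial fission (r = 0.971). Those most like Id2 were the histone gene H4c8 (r = 0.943), the mitochondrial nucleotide carrier Slc25a33 (r = 0.928) and Cenph of the kinetochore (r = 0.92). Each r is over 10 libraries and was among the highest 3 over all other tested genes, and is given as a description.

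The rest of the pathway was read from a list of 90 further genes by role. Of these, 42 passed the filter, 2 rose, 4 fell and 36 were not called, with a median change of -0.04 against -0.13 over all tested genes. The share called lower was below the 13.5% of all tested genes, and the share called higher was below the 7.73% of all tested genes. The second comparison turned with the scaling: 7 of the 42 were called higher under quantile normalization, against 12.3% of all genes, and 7 with library medians centred, against 15.6%. Another 48 genes lay below the filter, 9 of them listed at 0 in every library. Of the 48, 4 had an unadjusted exact permutation p below 0.05, all 4 lower in RhoB-/-. Among all genes below the filter with a value above 0 in some library, 9.38% reached that p and 5.79% reached it with a lower level in RhoB-/-.

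**Figure D3:**
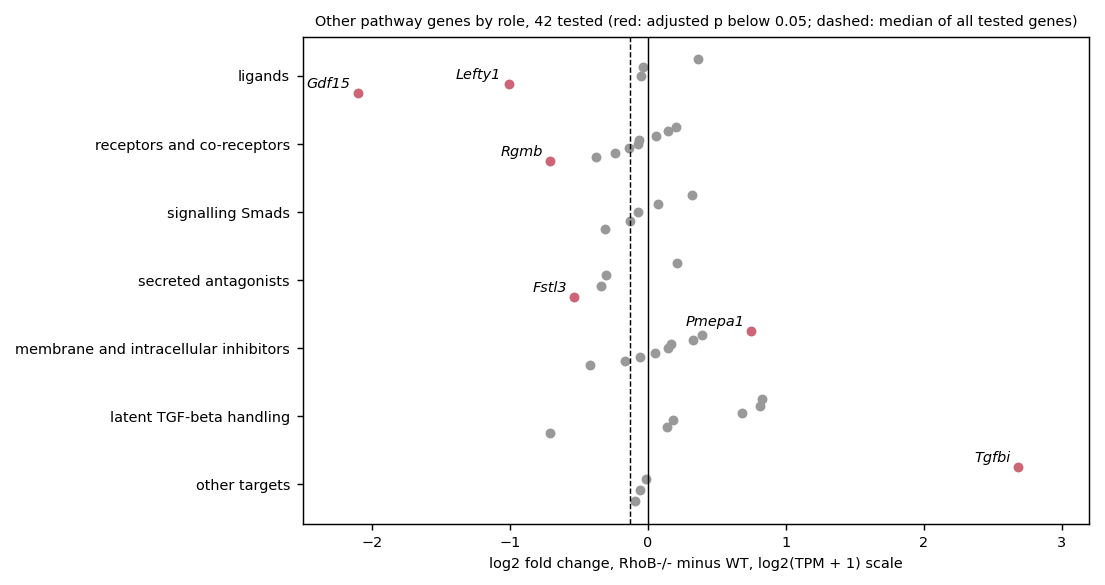
Log2 fold change (RhoB-/- minus WT, log2(TPM + 1) scale) of the 42 tested pathway genes by role, with 1 point per gene; red marks an adjusted p below 0.05, the solid line is 0 and the dashed line the median of all tested genes at -0.13. Gdf15 at -2.10 and Tgfbi at 2.68 stand farthest from 0, and signalling Smads and genes of latent TGF-beta handling hold no call.

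Among the other ligands, 2 of 5 tested fell, against 13.5% of all tested genes called lower. Each role held few tested genes, so its count of calls is no result about that role. Gdf15, a divergent member of the family induced by cell stress, was at 38.47 to 79.24 TPM in WT and 8.11 to 15.92 TPM in RhoB-/-. It fell from 54.6 ± 17.1 to 11.9 ± 3.40 TPM (SD, n = 5), with a log2 fold change of -2.10 (SE 0.23, limma adjusted p = 8.91e-05). Lefty1, a secreted inhibitor of Nodal, was at 7.98 to 14.54 TPM and 3.07 to 6.72 TPM, and fell with a log2 fold change of -1.01 (SE 0.19, limma adjusted p = 0.00431). Neither gene's groups overlapped. Both kept their call in each of the 10 fits with a library left out.

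Among the other receptors and co-receptors 1 of 9 tested fell, against 13.5% of all tested genes called lower. Rgmb, a membrane-anchored BMP co-receptor, was at 13.53, 19.28, 16.73, 18.7 and 14.26 TPM in WT and at 8.78, 8.01, 12.82, 10.33 and 8.8 TPM in RhoB-/-. The groups did not overlap, and the log2 fold change was -0.71 (SE 0.14, limma adjusted p = 0.00529). Acvr1b, an activin and Nodal type I receptor and the most abundant of this group, averaged 32.0 ± 6.02 TPM in WT against 35.4 ± 5.01 TPM in RhoB-/- (SD, n = 5), with a log2 fold change of 0.15 (limma adjusted p = 0.455).

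None of the 5 tested signalling Smads was called by limma, and 1 was lower at an unadjusted p below 0.05 (Smad5, which carries BMP signals, log2 fold change -0.31, named after its value was seen). At that limma p, 24.9% of all tested genes were lower. Smad4, the shared partner of all receptor Smads, was at 25.45 to 41.71 TPM in WT and 27.65 to 48.27 TPM in RhoB-/-, with a log2 fold change of 0.08 (95% interval -0.30 to 0.46, limma adjusted p = 0.773). Of the secreted antagonists 1 of 4 tested fell, against 13.5% of all tested genes called lower. Fstl3, which binds activins, was at 2.1 to 2.97 TPM in WT and 0.9 to 1.98 TPM in RhoB-/-, with groups that did not overlap and a log2 fold change of -0.53 (SE 0.17, limma adjusted p = 0.0415). That call was kept in only 2 of the 10 fits with a library left out, those without RhoB-/- replicate 3 or 4. Without RhoB-/- replicate 5 the call of Fstl3 was lost (log2 fold change -0.54, limma adjusted p = 0.0624). Among other settings it was lost without the filter, under quantile normalization and with library medians centred, with limma adjusted p values from 0.0787 to 0.112. Twsg1, which modulates BMP binding, ran from 9.06 to 12.48 TPM in WT and from 7.26 to 9.8 TPM in RhoB-/- and just missed the threshold (log2 fold change -0.34, limma adjusted p = 0.0529).

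Of the membrane and intracellular inhibitors 1 of 9 tested rose, against 7.73% of all tested genes called higher. Pmepa1, a TGF-beta-induced membrane protein that holds receptor Smads away from the receptor, was at 2.74, 4.74, 2.28, 2.64 and 3.89 TPM in WT and at 4.76, 5.63, 5.61, 6.94 and 7.43 TPM in RhoB-/-. The groups met without overlapping, and the log2 fold change was 0.75 (SE 0.17, limma adjusted p = 0.0112). Ppm1a, a phosphatase of receptor Smads, was at 65.4 ± 7.04 and 87.3 ± 20.8 TPM (SD, n = 5) and was not called (log2 fold change 0.39, limma adjusted p = 0.0787). In latent TGF-beta handling none of 6 tested genes was called by limma, although 5 of the 6 changes were positive. At an unadjusted p below 0.05, which 11.9% of all tested genes reached with a higher level, 3 of the 6 were higher. These were Itgav and Itgb6, the subunits of an integrin that activates latent TGF-beta (log2 fold changes 0.82 and 0.68), and the latency protein gene Ltbp1 (0.81). They were named after their values were seen. Itgav was at 18.24, 7.01, 10.83, 11.23 and 31.58 TPM in RhoB-/- against 6.7 to 8.04 TPM in WT. Itgb6 was at 12.16, 10.39, 8.61, 23.35 and 24.25 TPM against 6.23 to 13.42 TPM (exact permutation p = 0.0873). Ltbp1 was at 1.2 to 4.04 TPM against 0 to 1.75 TPM. Its WT mean of 0.958 TPM was under the filter, which it passed only through its RhoB-/- mean of 2.39 TPM. Its place among the 3 therefore carries no weight. In all 3 genes the groups overlapped and the highest library was RhoB-/- replicate 5, which held Rhob RNA. Thbs1 was lower at an unadjusted p below 0.05, which 24.9% of all tested genes reached with a lower level. Thbs1, thrombospondin 1, which can activate latent TGF-beta, was the most abundant of them, at 47.1 ± 22.9 and 26.1 ± 5.50 TPM (SD, n = 5) with a log2 fold change of -0.71 (limma adjusted p = 0.111).

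Of 4 other target genes tested 1 rose, against 7.73% of all tested genes called higher. Tgfbi, a secreted matrix protein named for its induction by TGF-beta, was at 0.52, 0.72, 0.85, 0.75 and 1.8 TPM in WT and at 8.43, 15.74, 9.91, 9.7 and 13.14 TPM in RhoB-/-. Every RhoB-/- library stood far above every WT library, with a log2 fold change of 2.68 (SE 0.20, limma adjusted p = 2.97e-06) and the same call in each fit with a library left out. The WT mean of Tgfbi, 0.928 TPM, was under the filter, so the gene was tested only through its RhoB-/- level. Without the filter Tgfbi was also called (limma adjusted p = 7.75e-05). Cdkn2b, a cell cycle inhibitor induced by TGF-beta in epithelium, was at 49.5 ± 11.9 and 47.4 ± 10.8 TPM (SD, n = 5) and was not called, with a change of -0.06 that turned positive with library medians centred (limma adjusted p = 0.862).

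**Figure D4:**
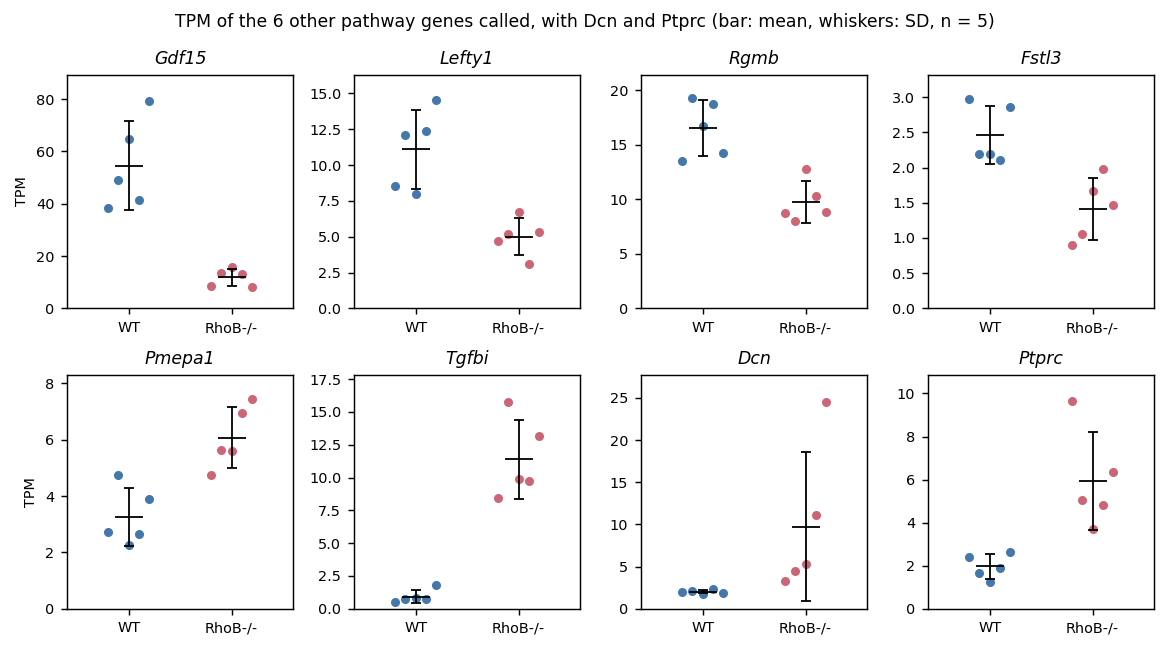
TPM (linear axis from 0) of the 6 further pathway genes called, and of the fibroblast marker Dcn and the leukocyte marker Ptprc, with 1 point per library, the mean as a bar and the SD of 5 libraries as whiskers. Tgfbi, Pmepa1, Dcn and Ptprc are higher in RhoB-/- and Gdf15, Lefty1, Rgmb and Fstl3 are lower, without overlap between the genotypes.

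Markers of other cells moved with genotype in the same libraries. Ptprc, the pan-leukocyte antigen CD45, averaged 1.97 ± 0.571 TPM in WT against 5.92 ± 2.28 TPM in RhoB-/- (SD, n = 5, limma adjusted p = 0.00321), and Cd3e and Cd3g were also higher. Dcn, a fibroblast proteoglycan, was at 1.8 to 2.3 TPM in WT and 3.27 to 24.51 TPM in RhoB-/- (limma adjusted p = 0.0202), with the highest value in replicate 5. Of the other fibroblast markers Vim was higher (limma adjusted p = 0.0438), and Col3a1 and Col6a1 were not called (limma adjusted p = 0.259 and 0.179). Below the filter Col1a1 was higher (exact permutation p = 0.0317). Col1a2, Lum and Pdgfra were not set apart (exact permutation p = 0.19, 0.762 and 0.286), and Pdgfra had the lower mean in RhoB-/-. Macrophages and fibroblasts also make Tgfbi. The listed markers of macrophages and related cells, Itgam, Adgre1 and Csf1r, lay below the filter and overlapped between the groups (exact permutation p = 0.238, 0.0635 and 0.0556). The part of macrophages and fibroblasts in the rise of Tgfbi was not tested. In bulk samples, fewer cells of a type and less RNA per cell cannot be told apart.

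Some markers of crypt position moved as well. Of 6 upper crypt colonocyte markers 4 rose (Krt20, Ceacam1, Car4 and Aqp8), against 7.73% of all tested genes called higher. Krt20 was at 588 to 902 TPM in WT and 1070 to 2414 TPM in RhoB-/-. Slc26a3 (log2 fold change 0.28, limma adjusted p = 0.324) and Guca2a (-0.03, limma adjusted p = 0.89) were not called. Of 8 proliferation genes 3 fell, against 13.5% of all tested genes called lower, with all 8 changes negative. Of 9 immediate-early genes, which include targets shared with stress signals, 1 fell (Nr4a1), a share near that 13.5%. The part of crypt position in the lower Smad6 and Id2 was not tested. Bmp2, whose level is highest near the surface, was not called with all libraries and was called lower without WT replicate 1 (limma adjusted p = 0.017). Its relation to crypt position was not tested.

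**Figure D5:**
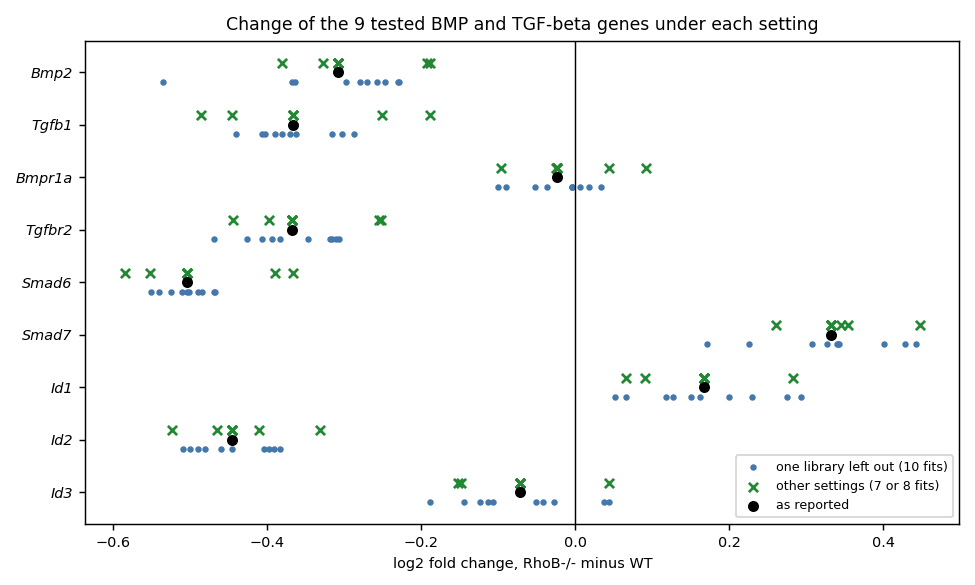
Log2 fold change (RhoB-/- minus WT) of the 9 tested genes as reported (black), with 1 library left out (blue, 10 fits) and under other settings (green, 7 or 8 fits). Smad6, Id2, Tgfb1, Tgfbr2 and Bmp2 stay below 0 and Smad7 and Id1 above 0 in all fits drawn, while Bmpr1a and Id3 cross 0.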

How the data were processed

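RNA of colon IECs from 5 WT and 5 RhoB-/- samples was analysed, grouped by the genotype in the labels. The authors prepared TruSeq libraries, sequenced them with paired-end reads and deposited TPM values. The submitters' processing notes name HISAT2, StringTie, RSEM and edgeR with build GRCm38.p6 and no versions. The labels do not name the mice behind the replicates, so p-values measure the spread between these samples. Depth is unknown, and no counting interval is given.

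The deposited TPM were used as given. All 55487 genes were read, and the 12870 with a mean TPM of at least 1 were fitted as log2(TPM + 1) with limma 3.58.1 in R 4.3.3 (eBayes with trend, genotype only, two-sided, Benjamini-Hochberg over all fitted genes). No count test was run. Genes below the filter, and single values, were given an exact two-sided permutation test (252 labelings). Correlations were tested with 100000 permutations and adjusted over 36 pairs.

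The 10 genes, the wider pathway list, the marker lists and the motifs were chosen with earlier results of these data known. Of the wider list, the called genes (up to 4 with the smallest p in a role) and the most abundant gene of each role are named. Any other was chosen after its values were seen. Positions are from GENCODE on GRCm38. Alternatives tried were a pseudocount of 0.1, no filter, a filter of 5 TPM, quantile normalization, library medians centred, mitochondrial genes removed, a replicate block, limma without the trend, the study's thresholds (unadjusted p below 0.05, fold change above 1.5), and each library left out.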

Additional observations from a re-analysis of the deposited data

Results flagged for a closer look

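In 46 groups of 5 libraries examined for a single library far from the others, 3 were flagged by Dixon's test at the 95% level, and chance alone gives about 1 in 20 groups, or 2.3. The library labelled RhoB-/- replicate 5 held 110.87 TPM of Rhob, with the next highest RhoB-/- library at 0.57 TPM. WT replicate 1 held 5.89 TPM of Bmp2, with the next lowest WT library at 13.37 TPM. WT replicate 5 held 1.8 TPM of Tgfbi, with the next highest WT library at 0.85 TPM, and lay below every RhoB-/- library.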

How the results depend on the processing

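The number of the 10 signalling genes called lower was 2, and 0 were called higher in every fit. The lower count was 1 without the filter, with library medians centred and under the replicate block, each time by the loss of Id2, 4 with mitochondrial genes removed (Smad6, Id2, Tgfb1 and Tgfbr2), and 0 at the study's thresholds, since neither change reached 1.5-fold. It ranged from 1 to 3 with a library left out. It was 1 without WT replicate 4 or 5 or RhoB-/- replicate 1, 2 or 5, again by the loss of Id2. The cause of these moves was not tested. In the wider list, the count called higher (2) was 1 with the filter at 5 TPM, where fewer genes were tested, 7 under quantile normalization, 7 with library medians centred, 5 at the study's thresholds and 2 to 3 with a library left out. The count called lower (4) was 9 with mitochondrial genes removed and 3 to 6 with a library left out. With mitochondrial genes removed, 3729 of all 13287 tested genes were called lower, against 1734 of 12870 in the main fit. At the study's thresholds 6.37% of all tested genes were called higher. The counts under these settings are therefore no result about the pathway.

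The change of Bmpr1a was 0.0445 under quantile normalization and 0.0917 with library medians centred, and that of Id3 was 0.0435 and that of Cdkn2b 0.0599 with library medians centred. With a library left out Bmpr1a ranged from -0.10 to 0.0338, Id3 from -0.19 to 0.0444, Smad4 from -0.0279 to 0.17 and Cdkn2b from -0.19 to 0.0629. Over all genes, 2729 calls became 4830 with mitochondrial genes removed, 1576 without WT replicate 4 and 1754 without RhoB-/- replicate 1.

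Samples with the same replicate number did not deviate together (correlations from -0.0874 to 0.072), and 2 of 10 libraries were most like the one with their own number in the other genotype. The replicate block gave 1895 calls over all genes, with limma adjusted p values of 0.0539 for Id2 and 0.103 for Fstl3. TPM without counts limits what can be said of low genes such as Bmp4.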

Other observations

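The 4 of 48 pathway genes below the filter that had an unadjusted exact permutation p below 0.05 are described here, chosen after their values were seen. Of all low genes with a value above 0 in some library, 9.38% reached that p and 5.79% reached it with a lower level in RhoB-/-. These shares leave out genes at 0 in every library, and the 48 include 9 of those. A count of 4 is too small to be a result about the pathway. Bmp7, a BMP ligand of epithelia, was at 1.76, 1.06, 0.81, 1.45 and 0.93 TPM in WT and at 0.46, 0.34, 0.54, 0.56 and 0.3 TPM in RhoB-/-, with no overlap (exact permutation p = 0.00794). Bambi, a pseudoreceptor that blunts TGF-beta family signals, was at 0.92, 1.56, 1.55, 1.51 and 1.26 TPM in WT and at 0.37, 0.61, 0.7, 0.76 and 0.3 TPM in RhoB-/-, again with no overlap (exact permutation p = 0.00794). Rgma, a BMP co-receptor related to Rgmb, was at 0.43 to 0.8 TPM in WT and 0.26 to 0.55 TPM in RhoB-/- (exact permutation p = 0.0397). Ltbp2, a latent TGF-beta binding protein of the matrix, was at 0.17 TPM or less in every library (exact permutation p = 0.0317). These p-values are not adjusted for the 48 genes, and the values are too low for the reads behind them to be judged. Bmp7 and Bambi averaged 1.20 and 1.36 TPM in WT and fell below the filter through their lower RhoB-/- levels.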
